A study of Mus musculus with 17 samples.

Results

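Cardiac fibroblasts (CFs) sorted from infarcted mouse hearts 2 days post-infarction (dpi) were compared with those sorted at 1 dpi, the earliest step that these libraries cover. The comparison takes the 3 libraries of each day, 6 of the 17 libraries from 1 to 6 dpi, and they were chosen by the day in their labels and by no measured value. Mice of both days were C57BL/6 of genotype Collagen1a1-GFP+ and 8 to 10 weeks old, and all underwent myocardial infarction (MI) by permanent closure of the left anterior descending artery, so the groups share every treatment and were defined by the day. Their libraries also differed in sex-linked genes, as given below. No uninfarcted heart was analysed here. GFP in these mice is driven by the *Col1a1* promoter, and viable GFP+/CD31-/CD45- cells were sorted after enzymatic digestion of the ventricles and bead enrichment with the mEFSK4 antibody, so the gate itself selects cells with an active *Col1a1* promoter. Bulk MARS-seq counted the 3′ ends of poly-A transcripts as raw reads per gene. Replicates are called biological in the study's methods, but whether a library is 1 mouse or a pool is not stated, so the p-values measure the spread between libraries. In such bulk samples fewer cells of a type and less RNA per cell cannot be told apart.

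After coronary occlusion the fibroblasts of the ventricle first act as sentinels, releasing chemokines and cytokines that draw leukocytes, and they then divide and take on the synthesis of the collagenous scar. Division uses separate gene sets in turn. Replication genes are switched on before and during S phase, largely through E2F sites, and the genes of mitosis and cytokinesis follow, many of them through a cell cycle genes homology region (CHR) that works together with CCAAT boxes bound by NF-Y. Building a new ribosome, refolding proteins after stress and secreting matrix are further programmes that a stimulated fibroblast can start or stop.

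The sorted cells carried the fibroblast markers at both days. The mean level of 12 such markers lay between 9.28 and 9.80 log2 CPM, the usual scaling of counts to library size, in the 1 dpi libraries and between 9.87 and 10.12 in the 2 dpi libraries. *Pdgfra*, a receptor that marks resident CFs, had levels of 8.41, 8.12 and 8.12 at 1 dpi and of 8.23, 8.25 and 7.98 at 2 dpi. *Ptprc*, which encodes the CD45 used to exclude leukocytes, had 1.12 CPM in replicate 1 of 1 dpi and no count in the other 5 libraries, and *Pecam1*, which encodes CD31, lay between 0.873 and 12.8 CPM. The summed level of 15 macrophage and monocyte markers was 65.5 to 76.7 CPM at 1 dpi and 58.4 to 101 CPM at 2 dpi, that of 10 endothelial markers 85.2 to 133 and 64.3 to 193 CPM, and none of either list passed the test. Summed cardiomyocyte markers were separate between the days, at 44.4 to 64 CPM (1 dpi) and 20.2 to 37 CPM (2 dpi) over 14 genes, and so were 7 Schwann cell and neural markers, at 11.4 to 17 and 25 to 29.7 CPM. Both sums are small beside those of fibroblast genes, and their part in the results was not tested. Total counts ranged from 8021815 to 22029938, with replicate 1 of 1 dpi the shallowest. This library also stood apart in sex-linked genes, with 208 CPM of *Xist* and a summed 10.5 CPM of 4 Y-linked genes, against 1.8 to 20.9 and 61.2 to 71.5 CPM in the other 5, so many calls and medians of gene lists are also given without it. Mitochondrial genes held 1.4 to 1.9% of the counts at 1 and 2 dpi, 0.3 to 0.8% at 3 dpi and 0.4 to 1.7% at 6 dpi. Levels of later days are given below as values only, and whether processing sets those libraries apart was not tested.

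Few genes passed the test, and most of them were genes of cell division. Of 14030 genes tested with edgeR's quasi-likelihood test, 22 rose, which is 0.157% of those tested, and 3 fell, which is 0.0214%. At an unadjusted p under 0.05, 4.63% of all genes were higher and 2.95% lower. To pass means to pass in this fit of all 17 libraries. The edgeR fit of the 6 libraries alone called 0.302% of its 12895 genes higher and 0.186% lower, and its adjusted p is added for genes described below that passed there and not in the fit of all libraries. Of the genes called in the fit of all libraries, 6 did not pass there. They were *Fam83d* (adjusted p = 0.24), *Kif11* (0.2), *Nuf2* (0.14), *Pimreg* (0.12), *Kif23* (0.11) and *Foxm1* (0.097). Without replicate 1 of 1 dpi, or without replicate 3 of 2 dpi, 13 genes rose and 0 fell, and without replicate 1 or 2 of 2 dpi 1 gene fell. Of the 22 that rose, 12 were no longer called without replicate 1 of 1 dpi and 11 without replicate 3 of 1 dpi or replicate 3 of 2 dpi. The 22 rose by between 1.84 and 4.12 on the log2 scale, with a median of 2.52. All 25 genes were without overlap between the days, beside 8.05% of all genes tested with every 2 dpi library above every 1 dpi library and 7.03% with every one below. The list of 50 mitosis and cytokinesis genes holds 16 of the 22 genes that rose. The other 6 were *Cdca3*, *Pimreg*, *Fam83d*, *Knstrn*, *Stmn1* and *Ptprn*.

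**Figure D1:**
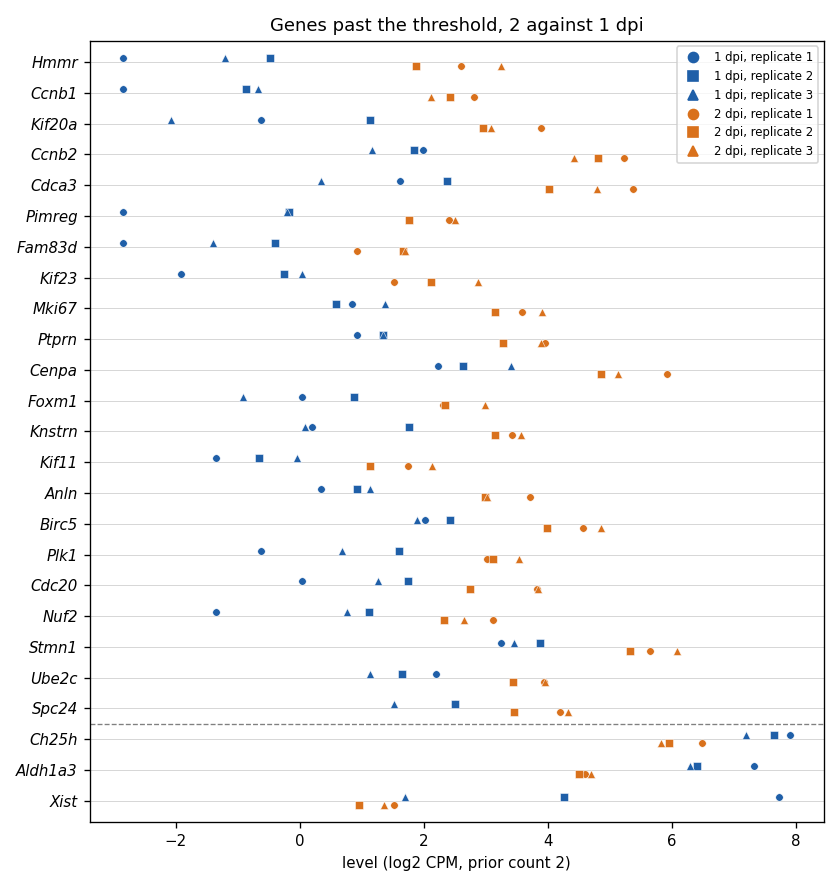
Level of the 25 genes past the threshold in each of the 6 libraries, in log2 CPM with a prior count of 2, with 1 dpi in blue, 2 dpi in orange and marker shapes for the replicates. The 22 genes above the dashed line rose and the 3 below it fell, and in each of the 25 the 2 colours are separate.

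Cyclins and regulators of mitotic entry were among the genes with the steepest rise. *Ccnb2*, a B-type cyclin that activates CDK1 (chr9:70407692-70421547 on GRCm38, minus strand), had levels of 1.98, 1.85 and 1.16 log2 CPM at 1 dpi and of 5.23, 4.81 and 4.42 at 2 dpi. Every 2 dpi library thus stood above every 1 dpi library, and the gap between the days was wider than the spread within either. Its log2 fold change was 3.23 ± 0.34 (SE), a 9.36-fold rise (adjusted p = 1.1e-04). *Ccnb1*, the other B-type cyclin, had 0 counts in replicate 1 of 1 dpi and levels of -0.86 and -0.67 in the other 1 dpi libraries, against 2.81, 2.42 and 2.12 at 2 dpi (log2 fold change 3.90 ± 0.59, adjusted p = 0.0035). *Cdca3*, a trigger of mitotic entry that targets an inhibitor of CDK1 for degradation, had levels of 1.61, 2.38 and 0.34 and then of 5.38, 4.02 and 4.80 (3.21 ± 0.48, adjusted p = 0.0035). The days did not overlap in either gene. *Foxm1*, a transcription factor of late cell cycle genes whose exons overlap those of *Tex52* on the same strand, rose by 2.52 ± 0.44 (adjusted p = 0.014), and *Plk1*, a kinase of mitotic entry and exit, rose by 2.41 ± 0.43 (adjusted p = 0.016). Without replicate 1 of 1 dpi neither was called (adjusted p = 0.083 and 0.072).

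Genes of the spindle, kinetochore and cleavage furrow rose with them. *Hmmr*, which encodes a microtubule-binding spindle protein that is also known as a hyaluronan receptor, had 0, 14 and 6 counts at 1 dpi and 111, 66 and 161 at 2 dpi. Its low counts at 1 dpi make its log2 fold change of 4.12 ± 0.61 (adjusted p = 0.0035) the largest of the genes that rose and also one that depends on the prior count. *Cenpa*, the histone variant that marks centromeres, had levels of 2.23, 2.63 and 3.41 and then of 5.92, 4.85 and 5.13 (2.53 ± 0.36, adjusted p = 0.0028). Kinetochore genes were represented further by *Nuf2* (2.21 ± 0.44), *Spc24* (1.84 ± 0.34) and *Knstrn* (2.50 ± 0.41). Motor proteins of the spindle and midbody were represented by *Kif11* (2.48 ± 0.49), *Kif20a* (3.40 ± 0.63) and *Kif23* (2.87 ± 0.48), and *Anln*, a scaffold of the contractile ring, rose by 2.48 ± 0.49. *Birc5*, a subunit of the chromosomal passenger complex, rose by 2.41 ± 0.46, and *Mki67*, whose protein coats mitotic chromosomes and serves as the common marker of cycling cells, rose by 2.69 ± 0.44 from levels of 0.84, 0.58 and 1.37 to 3.58, 3.15 and 3.91. Without replicate 1 of 1 dpi the adjusted p was 0.06 for *Mki67*, 0.061 for *Knstrn*, 0.068 for *Spc24*, 0.098 for *Nuf2*, 0.19 for *Kif20a*, 0.20 for *Kif11* and *Birc5* and 0.23 for *Anln*, so that these calls were lost. *Kif23* was still called without that library but not without replicate 3 of 2 dpi (adjusted p = 0.081).

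Components of mitotic exit rose as well. *Cdc20*, an activator of the anaphase-promoting complex, had levels of 0.04, 1.75 and 1.26 at 1 dpi and of 3.83, 2.75 and 3.84 at 2 dpi (2.37 ± 0.47, adjusted p = 0.036, and 0.22 without replicate 1 of 1 dpi). *Ube2c*, the ubiquitin-conjugating enzyme of that complex, had levels of 2.19, 1.65 and 1.13 and then of 3.93, 3.44 and 3.96 (2.16 ± 0.33, adjusted p = 0.0035). Exons of both overlap another listed gene on the opposite strand, *Elovl1* for *Cdc20* and *Tnnc2* for *Ube2c*, and whether the counting used strand is not stated. *Stmn1*, which encodes the microtubule-destabilising protein stathmin, was the most abundant of the genes that rose, with levels of 3.25, 3.87 and 3.46 and then of 5.65, 5.33 and 6.08 (2.17 ± 0.28, adjusted p = 8.7e-04).

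Across the whole list of 50 mitosis genes, all of which could be tested, 16 rose and none fell, the median log2 fold change was 1.87 and 48 members had a positive value. All genes tested had a median of 0.01. Every 2 dpi library stood above every 1 dpi library for 32 of the 50 members (beside 8.05% of all genes). The shift was present in each library, since 47, 46 and 50 of the 50 members were above their mean 1 dpi level in replicates 1, 2 and 3 of 2 dpi. The mean level of the list was 0.49, 1.29 and 0.92 log2 CPM at 1 dpi and 2.86, 2.42 and 3.10 at 2 dpi, and it was 4.33 at 3 dpi. With DESeq2, which called 0.556% of all genes higher and 0.185% lower, 25 members passed, adding among others *Ccna2* (2.26), *Bub1b* (2.33), *Cdk1* (1.79), *Tpx2* (2.10) and *Top2a* (1.50), for which the edgeR adjusted p lay between 0.082 and 0.17. The count of 16 called members fell to 12 in the edgeR fit of the 6 libraries alone. It fell to 7 without replicate 1 of 1 dpi, to 9 without replicate 3 of 1 dpi or replicate 1 of 2 dpi, and to 6 without replicate 3 of 2 dpi. The median of the list lay between 1.79 and 2.20 over the 6 fits that leave out a library.

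No DNA replication gene passed the test. Of 49 replication and nucleotide synthesis genes tested with edgeR and DESeq2, neither tool called one, 3 had an unadjusted p under 0.05 with a higher value and 3 with a lower one, and the median log2 fold change was -0.08. The mean level of the list was 2.92, 3.69 and 3.14 log2 CPM at 1 dpi and 3.18, 3.08 and 3.61 at 2 dpi, so the days overlapped, and it was 4.40 at 3 dpi. Subunits of the replicative helicase lay on both sides of 0, with -0.46 for *Mcm2*, -0.29 for *Mcm5* and 0.28 for *Mcm7*, and *Pcna*, the sliding clamp, was at -0.05. Of the 49 members, 3 were without overlap and higher (6.12%, beside 8.05% of all genes) and 2 without overlap and lower (4.08%, beside 7.03%). The largest differences among these were those of 2 enzymes of nucleotide supply. *Tk1*, the salvage thymidine kinase, had levels of 0.04, 3.59 and 2.67 and then of 4.33, 4.22 and 4.58 (1.66 ± 0.55, adjusted p = 0.41), and *Rrm1*, the large subunit of ribonucleotide reductase, had 4.19, 4.23 and 4.35 and then 4.92, 4.65 and 5.45 (0.79 ± 0.27, adjusted p = 0.42). Neither passed the test, although *Tk1* passed (adjusted p = 4.8e-05) where every gene with at least 1 count was tested. The list's median was 0.14 without replicate 2 of 1 dpi, whose mean level for the list was the highest of the 6, 0.05 without replicate 2 of 2 dpi and -0.16 without replicate 1 of 1 dpi. Of 24 cyclins of the first gap phase, E2F factors and CDK inhibitors none passed with either tool, 1 had a higher value at an unadjusted p under 0.05, and the median was 0.15, but -0.08 without replicate 1 of 1 dpi. The CDK inhibitors *Cdkn2c* (0.70 ± 0.24) and *Cdkn2d* (0.55 ± 0.27) had every 2 dpi library above every 1 dpi library, with adjusted p of 0.43 and 0.66. They were the only 2 members of the list without overlap, 8.33% of it beside 8.05% of all genes.

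**Figure D2:**
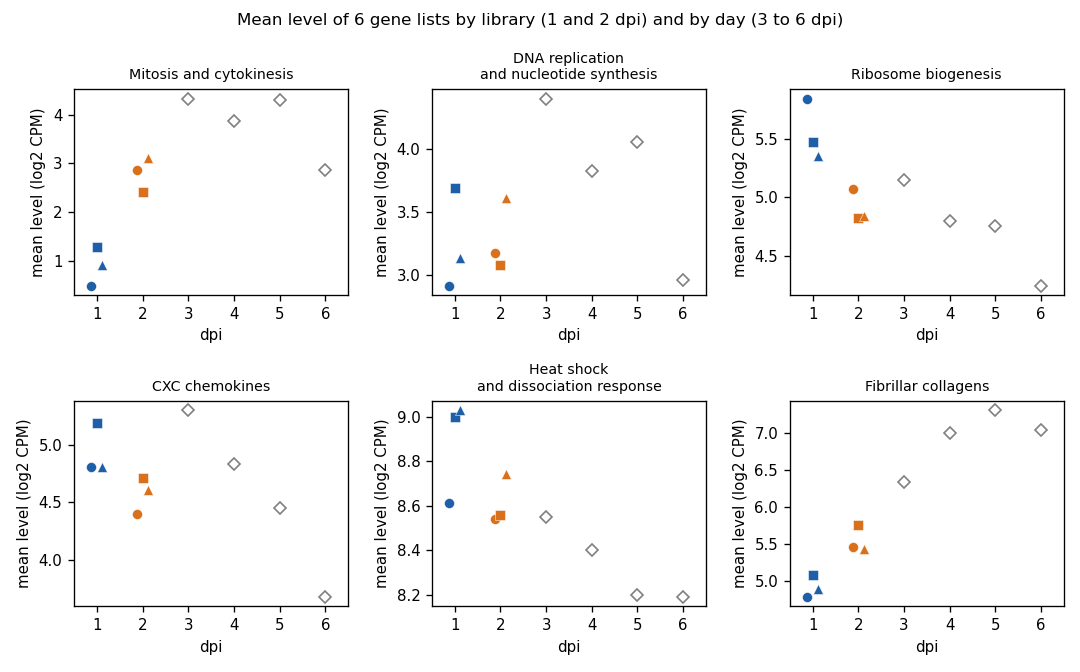
Mean level of 6 gene lists in log2 CPM against the day, with each library of 1 dpi (blue) and 2 dpi (orange) as a point and the mean over libraries as an open diamond for 3 to 6 dpi, where 5 dpi is 1 library; each panel has its own scale. The mitosis list is separate between the days (at most 1.29 at 1 dpi and at least 2.42 at 2 dpi), the replication list overlaps, and the ribosome biogenesis list is lower at 2 dpi in every library.

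Promoter sequences of the genes that rose were searched for elements of late cell cycle genes. RefSeq promoter sequences on GRCm38.p6, from 250 bases before to 50 bases after the start site, were matched to 17 of the 22 genes. The printed stretches are the 120 bases before the start site of 4 of these genes, shown because each holds both elements close to the start, with the CHR (TTTGAA, or TTCAAA on the other strand) and the CCAAT box (CCAAT, or ATTGG on the other strand) in capitals.
*Fam83d* (chr2:158767979-158768098, plus strand): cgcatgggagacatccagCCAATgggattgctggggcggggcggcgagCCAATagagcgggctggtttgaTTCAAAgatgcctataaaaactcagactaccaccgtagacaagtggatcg
*Ube2c* (chr2:164769809-164769928, plus strand): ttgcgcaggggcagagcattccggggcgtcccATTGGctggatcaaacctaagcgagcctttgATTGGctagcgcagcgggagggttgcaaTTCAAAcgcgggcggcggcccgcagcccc
*Cdc20* (chr4:118437344-118437463, minus strand): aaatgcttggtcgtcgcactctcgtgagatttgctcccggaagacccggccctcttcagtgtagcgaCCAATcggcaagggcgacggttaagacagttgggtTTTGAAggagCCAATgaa
*Kif11* (chr19:37376262-37376381, plus strand): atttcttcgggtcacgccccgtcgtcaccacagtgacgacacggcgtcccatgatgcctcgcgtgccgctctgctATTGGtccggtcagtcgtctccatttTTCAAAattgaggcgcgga
The motifs were searched on both strands as exact letters and do not overlap each other. The CHR letters were in the promoters of 12 of the 17 genes, 70.6%, beside 14.4% of 10711 tested genes with a promoter sequence. CCAAT was in 12 as well, 70.6% beside 42.8%, and both stood in the same promoter for 11, 64.7% beside 5.9%. The genes with both were *Ccnb2*, *Cdc20*, *Cdca3*, *Cenpa*, *Fam83d*, *Hmmr*, *Kif11*, *Kif23*, *Mki67*, *Plk1* and *Ube2c*. The E2F letters searched, GGCGGGAA and GCGCCAAA, were in none of the 17 and in 5.7% of all. In the mitosis list as a whole, 73.2% of 41 genes with a promoter held the CHR letters and 2.4% the E2F letters, and in the replication list 17.9% and 35.9% of 39 genes did. These shares describe letters in a window and were not tested.

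*Ptprn*, among the genes that rose, is best known outside cell division. It encodes a receptor-type tyrosine phosphatase-like protein of the secretory vesicles of neuroendocrine cells (chr1:75247027-75264502 on GRCm38, minus strand). Its levels were 0.93, 1.34 and 1.34 log2 CPM at 1 dpi and 3.96, 3.27 and 3.89 at 2 dpi, from 14, 58 and 49 and then 289, 179 and 255 counts. Each 2 dpi library was above each 1 dpi library by a wide margin, and the rise was 2.57 ± 0.29 (adjusted p = 1.5e-04). Its mean level was 5.27 at 3 dpi and 3.01 at 6 dpi. Its exons overlap *Gm28294* on the opposite strand. Neither of its RefSeq promoters held the CHR or CCAAT letters. *Ptprn*, *Ccnb2* and *Cdca3* were the 3 genes that passed in all 17 alternative fits, and they also passed with DESeq2 on the 6 libraries alone.

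Of the 3 genes that fell, *Aldh1a3* and *Ch25h* encode enzymes. *Aldh1a3*, an aldehyde dehydrogenase that makes retinoic acid (chr7:66390890-66427517, minus strand), had levels of 7.32, 6.41 and 6.29 log2 CPM at 1 dpi and of 4.60, 4.51 and 4.69 at 2 dpi. The 2 dpi libraries lay close together and below all 1 dpi libraries, and the fall of 2.15 ± 0.42 on the log2 scale was 4.45-fold (adjusted p = 0.035). *Ch25h*, which makes 25-hydroxycholesterol, an oxysterol released in inflammation (chr19:34473778-34475164, minus strand), had levels of 7.91, 7.65 and 7.20 and then of 6.48, 5.95 and 5.82, a 2.83-fold fall (log2 fold change -1.50 ± 0.26, adjusted p = 0.014). Its exon overlaps *Gm26902* on the opposite strand. Both calls were lost when some single libraries were left out. *Aldh1a3* had an adjusted p of 0.27 without replicate 1 of 1 dpi and of 0.18, 0.19 and 0.14 without replicates 1, 2 and 3 of 2 dpi, and *Ch25h* had 0.098 without replicate 1 of 1 dpi and 0.11 without replicate 2 or 3 of 2 dpi. Of 17 genes of retinoid synthesis and response *Aldh1a3* alone passed in the fit of all libraries. *Rdh10*, the retinol dehydrogenase of the step before it, had 6.84, 5.91 and 6.13 and then 5.31, 5.17 and 4.59 (-1.30 ± 0.45, adjusted p = 0.43, and 0.046 in the fit of 6 libraries), and *Aldh1a1*, another enzyme of the same reaction, had 5.02, 5.89 and 5.75 and then 7.01, 6.62 and 6.03 (1.01 ± 0.34, adjusted p = 0.42).

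*Xist*, the RNA that coats the inactive X chromosome, was the third gene that fell (-5.05 ± 0.96, adjusted p = 0.03). It had 1670, 461 and 63 counts at 1 dpi and 51, 34 and 42 at 2 dpi, so that the difference is set by replicates 1 and 2 of 1 dpi. Without replicate 1 of 1 dpi its adjusted p was 0.35. That library also had 10.5 CPM of 4 Y-linked genes, against 61.2 to 71.5 CPM in the other 5. The mean level of *Xist* was -2.40 at 3 dpi, 7.41 at 4 dpi, -2.85 at 5 dpi and 6.98 at 6 dpi. Whether the sex of the mice set its difference was not tested. The exons of *Xist* overlap *Tsix* on the opposite strand.

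Genes of ribosome biogenesis had lower values at 2 dpi, although none of them passed the edgeR test. The list covers the nucleolar factors that transcribe, cut and fold ribosomal RNA. All 46 members had a negative log2 fold change, with a median of -0.70, every 2 dpi library was below every 1 dpi library for 32 of them (beside 7.03% of all genes), and 22 had an unadjusted p under 0.05. With DESeq2 1 member passed (beside 0.185% of all genes lower), *Ebna1bp2*, a scaffold of early large-subunit assembly (-0.87). In replicates 1, 2 and 3 of 2 dpi, 5, 2 and 0 of the 46 members were above their mean 1 dpi level. *Fbl*, the methyltransferase fibrillarin, had levels of 6.45, 6.51 and 6.35 and then of 5.63, 4.94 and 5.83 (-0.93 ± 0.36, adjusted p = 0.53). *Polr1e*, a subunit of RNA polymerase I, had 4.02, 3.42 and 3.46 and then 2.86, 2.40 and 2.30 (-1.13 ± 0.39, adjusted p = 0.44), and *Utp20*, of the small-subunit processome, differed by -1.06 ± 0.35. Neither gene overlapped between the days. The mean level of the list was 5.84, 5.47 and 5.35 at 1 dpi, 5.07, 4.82 and 4.84 at 2 dpi, 5.15 at 3 dpi and 4.25 at 6 dpi, and the median was -0.52 without replicate 1 of 1 dpi.

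The protein synthesis and turnover machinery lay on the same side of 0 by less. Of 31 translation initiation factors and tRNA synthetases none passed with edgeR, 4 had a lower value at an unadjusted p under 0.05, 29 had a negative value and the median was -0.38 (-0.28 without replicate 1 of 1 dpi). *Cars*, the cysteinyl-tRNA synthetase, passed with DESeq2 (-0.93 ± 0.24, edgeR adjusted p = 0.20). The 27 proteasome and ubiquitin genes had a median of -0.31 (-0.19 without replicate 1 of 1 dpi) with 25 negative values, and none passed with either tool or had an unadjusted p under 0.05. The 35 genes of protein folding in the endoplasmic reticulum and of the unfolded protein response had a median of -0.24 (-0.33 without replicate 1 of 1 dpi), with 29 negative values, 5 lower at an unadjusted p under 0.05 and none past either tool's threshold. *Hspa5*, the master chaperone BiP, had levels of 10.06, 10.10 and 10.48 and then of 9.71, 9.15 and 9.71 (-0.68 ± 0.47, adjusted p = 0.87). The 41 ribosomal protein genes had a median of -0.11, which was 0.09 without replicate 1 of 1 dpi. Of these, 1 was without overlap and lower (2.44%, beside 7.03% of all genes).

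Within the stress response the lowest values were those of chaperones. Of 23 genes of the heat shock and dissociation response none passed with edgeR, 1 had a higher and 6 a lower value at an unadjusted p under 0.05, and the median was -0.08, with -0.13, 0.05 and 0.04 without replicates 1, 2 and 3 of 1 dpi. With DESeq2 4 passed with lower values (beside 0.185% of all genes), and all were chaperones. *Hsph1*, a co-chaperone of HSP70, had levels of 6.67, 6.84 and 7.04 at 1 dpi and of 4.94, 4.74 and 5.89 at 2 dpi (-1.58 ± 0.38, edgeR adjusted p = 0.15, DESeq2 adjusted p = 0.012, and 0.021 in the edgeR fit of 6 libraries). *Hspd1*, the mitochondrial chaperonin, had 8.34, 8.03 and 7.97 and then 6.94, 6.72 and 7.38 (-1.08 ± 0.25, edgeR adjusted p = 0.13, DESeq2 adjusted p = 0.0046, and 0.049 in the edgeR fit of 6 libraries), and its exons overlap *Hspe1* on the opposite strand. *Hsp90aa1* and *Hsp90ab1*, the cytosolic HSP90 genes, were the other two, and *Hsp90aa1* had 9.84, 9.72 and 10.14 and then 8.75, 8.65 and 9.25. The days did not overlap in any of the 4. Of 27 AP-1 and immediate early genes none passed with either tool, 1 had a higher and 1 a lower value at an unadjusted p under 0.05, and the median was 0.13, but -0.02 without replicate 1 of 1 dpi. *Fosl1*, an AP-1 subunit, had levels of 5.56, 5.57 and 5.23 and then of 4.42, 2.85 and 2.93 (-1.87 ± 0.64, adjusted p = 0.42, and 0.034 in the fit of 6 libraries).

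**Figure D3:**
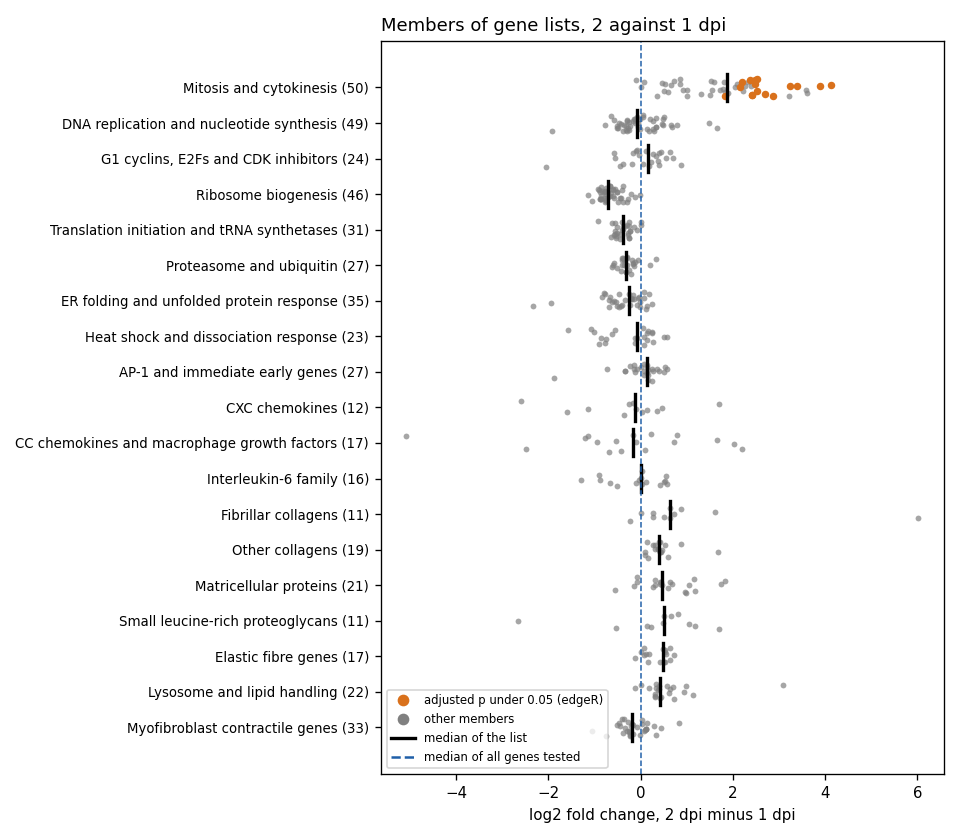
Log2 fold change of each member of 19 gene lists, 2 dpi minus 1 dpi, with orange points for members past the edgeR threshold, grey points for the others, a black bar for the list's median and a dashed line for the median of all genes tested; the number of members tested stands in parentheses. The mitosis list lies to the right with a median of 1.87 and holds every orange point, and the ribosome biogenesis list lies to the left with a median of -0.70.

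Several early inflammatory signals had lower values at 2 dpi without passing the edgeR test on all libraries. Of 12 CXC chemokines none passed with edgeR or DESeq2 on all libraries, 3 had a lower value at an unadjusted p under 0.05, and these 3 passed in the edgeR fit of the 6 libraries alone (beside 0.186% of all genes in that fit). They were *Cxcl3*, *Cxcl5* and *Cxcl2*, ligands that attract neutrophils. *Cxcl3* had levels of 5.94, 6.00 and 4.92 at 1 dpi and of 3.61, 2.40 and 3.12 at 2 dpi (-2.59 ± 0.70, adjusted p = 0.22, and 0.0033 in the fit of 6 libraries). *Cxcl5* had 8.79, 8.58 and 7.36 and then 7.28, 6.52 and 6.30 (-1.60 ± 0.47, adjusted p = 0.32, and 0.049 in the fit of 6 libraries). The days were separate in all 3. The list's median was -0.13, with other members on both sides of 0, -0.05 without replicate 1 of 1 dpi and 0.07 without replicate 1 of 2 dpi. Mean levels at 2 and 3 dpi were 3.05 and 4.53 for *Cxcl3*, 6.70 and 8.45 for *Cxcl5* and 5.23 and 6.65 for *Cxcl2*. The mean level of the list was 4.81 to 5.19 at 1 dpi, 4.40 to 4.71 at 2 dpi and 5.30 at 3 dpi. The list and these 3 genes were thus higher again at 3 dpi. Of 17 CC chemokines and macrophage growth factors none passed with edgeR on all libraries, 2 had a higher and 3 a lower value at an unadjusted p under 0.05, and with DESeq2 *Ccl9* passed with a higher value (2.20 ± 0.47, DESeq2 adjusted p = 0.0016, edgeR adjusted p = 0.079). *Csf2*, the growth factor GM-CSF, had levels of 4.51, 3.54 and 4.28 and then of 2.49, 1.40 and 0.76 (-2.48 ± 1.09, adjusted p = 0.60, and 0.021 in the fit of 6 libraries). The monocyte chemoattractants *Ccl7* (8.44, 8.07 and 8.91, then 7.20, 7.43 and 7.46) and *Ccl2* (10.17, 9.71 and 9.74, then 9.03, 8.98 and 8.83) were also separate between the days, with adjusted p of 0.66 and 0.65, and 0.047 for *Ccl7* in the fit of 6 libraries.

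Single cytokines were also lower in every 2 dpi library. *Inhba*, which encodes the activin A subunit, came closest to the edgeR threshold among genes with lower values, with levels of 8.60, 8.21 and 7.98 at 1 dpi and of 7.09, 6.16 and 6.69 at 2 dpi (-1.59 ± 0.35, adjusted p = 0.086, 0.0017 with DESeq2 and 0.017 in the edgeR fit of 6 libraries). *Il11*, a fibroblast cytokine, had 5.10, 4.82 and 4.37 and then 4.20, 3.21 and 2.65 (-1.30 ± 0.49, adjusted p = 0.50), and *Lif* had 4.77, 4.70 and 4.84 and then 4.12, 3.45 and 3.99 (-0.90 ± 0.31, adjusted p = 0.42). The interleukin-6 family as a whole did not lie to one side. Over its 16 members the median was 0.01 with 8 positive and 8 negative values, none passed with either tool, and 1 had a higher and 3 a lower value at an unadjusted p under 0.05. *Saa3*, an acute-phase protein induced by interleukin-1, had levels of 8.21, 7.37 and 8.30 and then of 5.25, 6.65 and 5.54 (-2.07 ± 0.65, adjusted p = 0.37, and 0.017 in the fit of 6 libraries). Its mean level was 7.96 at 1 dpi, 5.82 at 2 dpi and 7.62 at 3 dpi. The 30 tested genes of interleukin-1 signalling and NF-kB feedback did not lie to one side. Their median was 0.02, with 16 positive and 14 negative values. None passed with either tool on all libraries, and 2 were without overlap and lower (6.67%, beside 7.03% of all genes). *Pdpn*, the mucin-type membrane protein podoplanin of activated stroma, passed with DESeq2 (adjusted p = 0.019) and in the fit of 6 libraries (0.0087) but not in the edgeR fit of all (0.16), with levels of 5.93, 5.72 and 5.75 and then of 4.07, 4.20 and 4.67. Its mean level was 4.31 at 2 dpi and 3.94 at 3 dpi.

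Several lists of matrix genes had higher values at 2 dpi, by less than mitosis genes and again without a member past the edgeR threshold in the fit of all libraries. Not all matrix lists did. The 32 genes of collagen hydroxylation, folding and crosslinking had a median of 0.08, with 23 positive values. The 18 hyaluronan and versican genes had a median of -0.14, with 10 negative values, and -0.22 without replicate 1 of 1 dpi. Among them *Has1* passed with a lower value in the edgeR fit of 6 libraries (-1.08, adjusted p = 0.049). Of 11 fibrillar collagen genes none passed with edgeR or DESeq2, 6 had a higher value at an unadjusted p under 0.05, 6 were without overlap and higher (beside 8.05% of all genes), and the median log2 fold change was 0.63 (0.52 without replicate 1 of 1 dpi). *Col1a1*, the main collagen of scar, had levels of 10.65, 10.96 and 10.89 at 1 dpi and of 11.54, 11.86 and 11.68 at 2 dpi (0.87 ± 0.38, adjusted p = 0.60). *Col3a1*, which assembles with it, had a mean level of 10.95 ± 0.06 (SD, n = 3) and then of 11.68 ± 0.09 (log2 fold change 0.73 ± 0.31, adjusted p = 0.58). Both were higher in every 2 dpi library, and the *Col1a1* promoter also drives the GFP of the gate. All 19 other collagens tested had positive values (median 0.41), but 13 did without replicate 1 of 1 dpi and 16 without replicate 2 or 3 of 2 dpi. Of the 19, 1 had an unadjusted p under 0.05, none passed the threshold of edgeR or DESeq2 and 5 were without overlap and higher (beside 8.05% of all genes). Of 21 matricellular genes none passed with edgeR and 7 had a higher value at an unadjusted p under 0.05 (median 0.46), with 0.38 without replicate 1 of 1 dpi. With DESeq2 *Cthrc1* and *Postn* passed (beside 0.556% of all genes higher). The 17 elastic fibre genes had a median of 0.49 (0.27 without replicate 1 of 1 dpi) and the 11 small leucine-rich proteoglycans of 0.51 (0.61), with 6 and 4 members without overlap and higher beside 8.05% of all genes, no member past the edgeR threshold in either list and 3 in each with a higher value at an unadjusted p under 0.05. *Aspn*, a proteoglycan that binds collagen, had levels of 5.32, 6.03 and 6.32 and then of 7.15, 7.63 and 8.06 (1.71 ± 0.44, edgeR adjusted p = 0.19, DESeq2 adjusted p = 0.014, and 0.017 in the edgeR fit of 6 libraries), and its exons overlap *Cenpp* on the opposite strand. The 33 contractile genes of myofibroblasts had a median of -0.19 (-0.12 without replicate 1 of 1 dpi), with none past either tool's threshold and 1 higher and 1 lower at an unadjusted p under 0.05, and *Actb*, cytoplasmic actin, had levels of 11.48, 10.99 and 10.98 and then of 10.69, 10.33 and 10.93.

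The marker genes of reparative cardiac fibroblasts (RCFs), the collagen-producing state that appears later, were separate between the days and higher in 4 of 6 cases, beside 8.05% of all genes. *Cthrc1*, which names that state, had levels of 5.99, 5.76 and 6.20 log2 CPM at 1 dpi and of 7.19, 7.01 and 6.96 at 2 dpi (1.06 ± 0.28, edgeR adjusted p = 0.20, DESeq2 adjusted p = 0.014, and 0.034 in the edgeR fit of 6 libraries). *Postn*, the matricellular protein of activated CFs, had 8.93, 8.37 and 8.79 and then 10.20, 9.24 and 9.99 (1.15 ± 0.34, edgeR adjusted p = 0.33, DESeq2 adjusted p = 0.0497). *Fn1*, fibronectin, had 7.71, 7.35 and 7.85 and then 8.71, 8.48 and 8.64 (0.97 ± 0.34, adjusted p = 0.44), with exons that overlap *Apol7d* on the opposite strand. These 3 and *Lox*, the collagen crosslinking enzyme (1.04 ± 0.40), were higher in every 2 dpi library, while *Ddah1* (0.31 ± 0.28) and *Ptn* (0.57 ± 0.34) overlapped between the days. *Cilp*, an antagonist of TGF-beta signalling in matrix, had levels of 5.39, 6.96 and 7.02 and then of 8.90, 7.64 and 8.45 (1.80 ± 0.42, edgeR adjusted p = 0.14, DESeq2 adjusted p = 0.0034, and 0.049 in the edgeR fit of 6 libraries). It belongs to the study's D1 list of 43 genes, and of these none passed with edgeR and 7 had a higher value at an unadjusted p under 0.05. With DESeq2 2 passed (beside 0.556% of all genes higher), and the median was 0.31 (0.23 without replicate 1 of 1 dpi). The study's D2 list of 57 genes had a median of 0.16 (0.12 without replicate 1 of 1 dpi), none past the edgeR threshold, 11 higher and 1 lower at an unadjusted p under 0.05 and 1 past the DESeq2 threshold. The study drew both lists from RNA velocity in Postn-expressing single cells of other samples, and the 43 and 57 genes used here are the ones it names, fewer than its whole set.

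**Figure D4:**
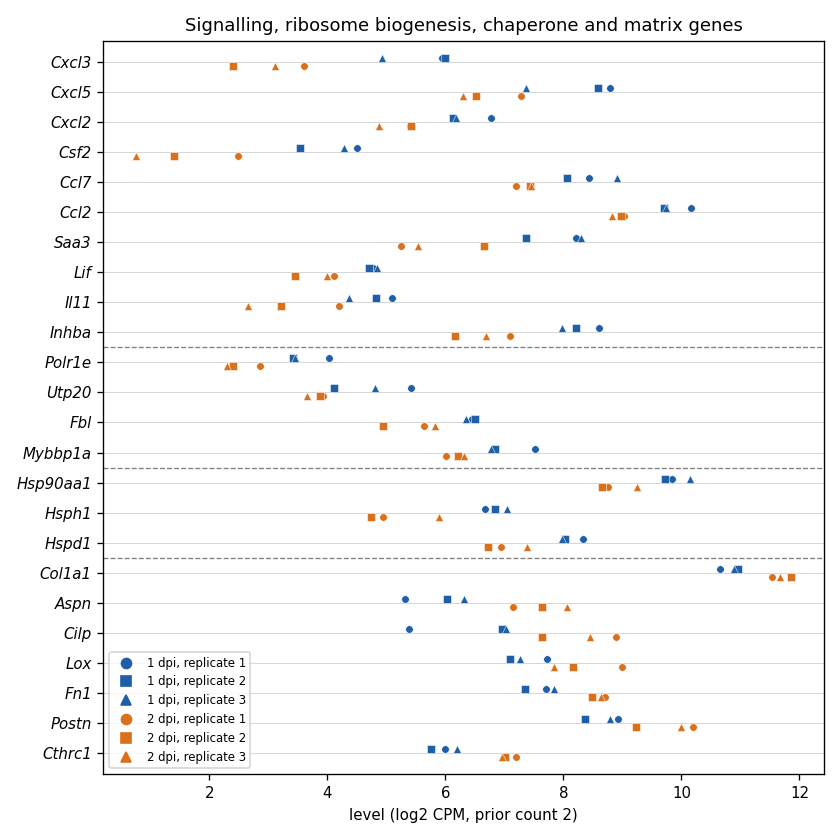
Level in log2 CPM with a prior count of 2 of 24 genes in the 6 libraries, grouped from the top as secreted signals, ribosome biogenesis, chaperones and matrix, with 1 dpi in blue and 2 dpi in orange. No gene shown passed the edgeR threshold, and in each the 2 days are separate, with lower values at 2 dpi in the upper 3 groups and higher values in the lowest. The 24 genes were picked by hand from the named genes, and lack of overlap was 1 of the rules for naming. Their separation and direction thus follow from the choice. Genes of these groups with the opposite direction, such as *Ccl9* and *Has1*, are not shown.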

How the data were processed

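Sorted CFs were profiled by bulk MARS-seq in 17 libraries of 1 to 6 dpi, and 1 and 2 dpi have 3 libraries each, grouped by the day in their labels. The authors demultiplexed reads with bcl2fastq (1.2.4 in the submitters' processing notes), aligned them to mm10 with STAR and assigned them to genes of the Ensembl GRCm38 annotation by featureCounts. The deposited values are raw counts for 31053 genes. Collapsing of molecular identifiers and the use of strand are not given in the sources used here, so reads are not independent molecules, 0 counts allow up to 3, and such floors cover counting error only. The study tested with DESeq2.

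Genes that reached 10 counts in 3 or more of the 17 libraries, 14030 in all, were tested with edgeR 4.0.16 (limma 3.58.1, R 4.3.3) on those counts by the quasi-likelihood F-test, with TMM scaling, day as a factor of 6 levels and no replicate block. Calls have a Benjamini-Hochberg adjusted p under 0.05 over all genes tested, and every adjusted p is of edgeR unless DESeq2 (1.42.0) is named. The absolute log2 fold change over the root of F was taken as its SE. A level means log2 CPM, computed with prior count 2. Level sums and motif shares were computed with pandas 2.3.3 in Python 3.11.15 and plotted with matplotlib 3.10.9. The edgeR and DESeq2 steps were tested on simulated data with 200 changed genes. Of genes changed by 1 on the log2 scale edgeR called 12.0% and DESeq2 23.0%, and of those changed by 2 they called 75.0% and 83.0%. Unchanged genes called were 2 with edgeR, beside 87 changed ones, and 20 with DESeq2, beside 106. The share of false calls with DESeq2 was thus above the threshold of 0.05 in this simulation. Pairs of replicates differed beyond sampling noise (chi-square per degree of freedom 47.5 to 70.3), so none was counted as a duplicate.

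The alternatives were DESeq2, DESeq2 size factors or upper-quartile scaling in edgeR, other count filters, only the 6 libraries, no 3 dpi libraries, a robust spread, the replicate block on 17 or 6 libraries, a minimum log2 fold change of 1, levels on raw library sizes and each library left out in turn. DESeq2 on the 6 libraries was added after seeing the data. The comparison and the gene lists (63 lists, 1454 of 1456 entries matched by symbol) were chosen with earlier results of these data known. Genes are named if called, if among up to 4 members of a described list with the largest differences, no overlap and a mean of at least 50 counts, if among the 10 largest rises or falls called both by DESeq2 and in the edgeR fit of 6 libraries, or as RCF, sort or sex markers. *Mcm2*, *Mcm5*, *Mcm7*, *Pcna*, *Ccna2*, *Bub1b*, *Cdk1*, *Tpx2*, *Top2a*, *Ebna1bp2*, *Ncam1*, *Upk3b*, *Tsc22d3* and the histone genes were named after their values were seen. Gene positions and exon overlaps are of GENCODE vM21 on GRCm38.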

Additional observations from a re-analysis of the deposited data

How the results depend on the processing

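The test called 25 genes (22 higher and 3 lower). DESeq2 called 104 (78 and 26), among them all 25, the edgeR test of 20569 genes with at least 1 count called 153 (111 and 42), and the edgeR fit of only the 6 libraries called 63 (39 and 24), 19 of them among the 25. DESeq2 on the 6 libraries, an alternative chosen after seeing the data, called 225 (130 and 95). A minimum log2 fold change of 1 left 5 genes higher (*Ccnb1*, *Ccnb2*, *Cdca3*, *Hmmr* and *Ptprn*) and 0 lower, with 69 lower at an unadjusted p under 0.05. The fit without the 3 dpi libraries called 25 (20 and 5), and the robust spread 24 (22 and 2). DESeq2 size factors, upper-quartile scaling and the filter on the 6 libraries each gave 22 and 3. Upper-quartile scaling moved the median of all genes to 0.04 from 0.01.

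Leaving out 1 library at a time gave 13 to 26 calls, 13 to 23 higher and 0 to 3 lower. The lowest counts, 13 higher and 0 lower, were without replicate 1 of 1 dpi and without replicate 3 of 2 dpi, where 248 and 377 genes were lower at an unadjusted p under 0.05. Without replicate 1 or 2 of 2 dpi 1 gene was lower. Called in all 6 such fits were 9 genes, *Ccnb1*, *Ccnb2*, *Cdca3*, *Cenpa*, *Hmmr*, *Pimreg*, *Ptprn*, *Stmn1* and *Ube2c*.

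Replicate numbers are shared by the days, but deviations of same-numbered libraries correlated at 0.001, -0.113 and 0.073 across 10571 genes and not every library correlated best with its own number, so the numbers do not pair the libraries. The replicate block gave 21 calls (18 and 3; 19 shared with the 25) on all libraries and 26 (10 and 16; 10 shared) on the 6.

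No named gene changed sign between fits of which either called it. The median log2 fold change of 27 of the 63 gene lists changed sign when a library was left out, among them AP-1 genes (0.13, and -0.02 without replicate 1 of 1 dpi) and CC chemokines (-0.16, and 0.02 without replicate 3 of 2 dpi). Over the named genes and alternatives, 3197 values kept their side of the threshold, 144 newly passed and 110 no longer passed. The cause of these differences was not tested. Depth limits the genes near 0 counts at 1 dpi, such as *Hmmr* and *Ccnb1*.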

Other observations

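Genes of lysosomes and lipid handling, which break down material that cells take up, had mostly higher values at 2 dpi. Of 22 such genes none passed with edgeR or DESeq2, 5 had a higher value at an unadjusted p under 0.05, 21 were positive and the median log2 fold change was 0.42, beside 0.01 over all genes and between 0.33 and 0.53 when any 1 library was left out. *Ctsk*, a collagen-degrading cathepsin, had levels of 4.49, 6.13 and 5.56 log2 CPM at 1 dpi and of 6.80, 6.57 and 6.63 at 2 dpi (1.13 ± 0.34, adjusted p = 0.33), so the days were separate. Of 20 glucocorticoid and circadian targets none passed with edgeR on all libraries and 2, *Fkbp5* and *Tsc22d3*, did in the edgeR fit of 6 libraries (beside 0.302% of all genes higher in that fit). At an unadjusted p under 0.05, 5 had a higher and 1 a lower value, and the median was 0.46 (0.42 without replicate 1 of 1 dpi). *Fkbp5*, a co-chaperone of the glucocorticoid receptor, had 4.98, 5.37 and 5.15 and then 6.43, 6.26 and 5.95 (1.05 ± 0.35, adjusted p = 0.41, and 0.037 in the fit of 6 libraries). *Tsc22d3*, a glucocorticoid-induced repressor of inflammation, had 5.31, 5.58 and 6.35 and then 7.85, 7.90 and 6.35 (1.70 ± 0.41, adjusted p = 0.14, and 0.049 in the fit of 6 libraries) and passed with DESeq2 (adjusted p = 0.0081), although its lowest 2 dpi library was at the level of the highest 1 dpi library.

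Markers of the epicardium and mesothelium, the outer layer of the heart, varied between libraries of 1 day. All 9 had negative values with a median of -1.05, but every one overlapped between the days, none passed the test, 1 had a lower value at an unadjusted p under 0.05, and the summed level was 107 to 385 CPM at 1 dpi and 31.9 to 210 at 2 dpi. *Upk3b*, a mesothelial membrane protein, had levels of 4.12, 4.56 and 2.79 and then of 0.21, 4.31 and 2.93, which shows replicate 1 of 2 dpi apart from the others. Among the 5 tested Schwann cell and neural markers *Ncam1*, an adhesion molecule, passed with DESeq2 (log2 fold change 1.40, adjusted p = 0.016) and no other did. Cholesterol synthesis genes had negative values in 18 of 24 cases, with a median of -0.26. The medians of 38 interferon-stimulated genes, 33 glycolysis genes and 43 oxidative phosphorylation genes were 0.01, 0.00 and -0.04, and each took both signs when libraries were left out in turn.

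*Igfbp3*, a binding protein of insulin-like growth factors, had levels of 7.46, 7.05 and 6.99 and then of 6.06, 5.70 and 5.43 (-1.43 ± 0.42, adjusted p = 0.32, and 0.013 in the fit of 6 libraries), and *Psat1*, an enzyme of serine synthesis, had 5.69, 5.00 and 4.85 and then 4.12, 3.72 and 3.55 (-1.42 ± 0.37, adjusted p = 0.21, and 0.034 in the fit of 6 libraries). Both were lower in every 2 dpi library. The 14 tested genes of the IGF axis, *Igfbp3* among them, had a median of 0.14, with 9 positive and 5 negative values. Of these, 4 were without overlap and higher (28.6%, beside 8.05% of all genes) and only *Igfbp3* without overlap and lower (7.14%, beside 7.03%). The histone genes *Hist1h2ap* and *Hist1h2ao* had the same log2 fold change of 1.88 ± 0.59 (adjusted p = 0.37, and 0.021 in the fit of 6 libraries). Their values are uncertain, since near-identical copies share reads.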
